A study of Daphnia magna with 12 samples.

Results

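Whole Daphnia magna (water fleas, small freshwater crustaceans used in toxicity tests) kept for 96 hours in water with the dissolved copper salt CuCl2 were compared with unexposed animals by microarray. The 4 arrays of CuCl2 pools and the 4 arrays of blank pools were chosen by their titles, which makes 8 of the 12 arrays of the series. The remaining 4 arrays held animals exposed to CuO nanoparticles, and these entered the statistical fit but are otherwise used here only for a closing comparison. Each pool joined the RNA of 40 daphnids, sampled with the age given as 96 hours, and came from a replicate exposure of its own. All groups were kept in ISO test medium and fed 2 green algae (Pseudokirchneriella subcapitata and Chlamydomonas reinhardtii), and the medium was renewed at 48 hours, with a fresh addition of copper for the exposed pools. The CuCl2 pools received the salt (as its dihydrate in the design text) at the concentration labelled EC10 for immobilisation, the CuO pools received nanoparticles at theirs, and the blank pools received no copper addition. The sources used here do not give the copper concentrations themselves. On every array a pool was paired with a copper reference, a mixture of equal parts of the CuCl2, CuO and blank RNA. Pools 1 and 2 of each group carried cy3 and pools 3 and 4 carried cy5. Since whole bodies were extracted, a change in RNA per cell and a change in the mix of tissues cannot be told apart.

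Copper is an essential trace metal, bound by enzymes of respiration, of antioxidant defence and, in crustaceans, by the oxygen carrier haemocyanin where that protein is used. In excess it takes part in redox cycling, displaces other metals from proteins and disturbs sodium uptake across the gill epithelium, and cells answer with metal-binding proteins such as metallothioneins and with antioxidant and chaperone proteins. Daphnids take up copper from water and from food, and their transcript response to it is read here probe by probe. The table names its 4247 DM probes by ID only, none of these IDs (0 of 4247) is found in RefSeq's gene table for the species (ASM2063170v1.1), and the lists of metal-binding, detoxification, moulting and digestive genes could therefore not be followed, nor could tissue markers be checked. No DM number was shared by 2 probes, so no probe had a partner of the same number.

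Values are log ratios of a pool to the reference, read as log2, and for single probes they are given after removing the mean offset between the dye orientations ("dye-centred"). The authors state neither the log base nor the direction. Read as pool over reference, the group means of an equal mixture should average to the reference on the linear scale, and for the 92 probes with the widest group differences (2 or more in log2) that average had a median log2 of -0.08, against 0.88 with the sign turned. The 15 control probes all had opposite signs in the cy3 and cy5 arrays, so the table was taken as already turned one way. Pool over reference is therefore the likely direction, but the signs below rest on this reading. The check does not settle the base, since the same average with natural logs was 0.0258. Under that base every fold below would be larger and more probes would pass 2-fold, while calls and directions would not change. Among same-dye arrays the lowest correlation was r = -0.55, between CuCl2 pool 4 and blank pool 3, and the reference, being part copper and part blank RNA, lies between such samples. The log2 ratios of CuCl2 pool 4 spread more widely over probes (SD 0.711) than those of CuCl2 pools 1, 2 and 3 (0.403, 0.386 and 0.434). Blank pools 1 to 4 also spread widely (0.614, 0.654, 0.533 and 0.620), and CuO pools less (0.439, 0.438, 0.429 and 0.357). Arrays brought to a common spread, by quantile normalization or by scaling to one median absolute deviation, are therefore given beside the main results on this pool. Both settings change every array, the blanks included, so they are not a correction of pool 4 alone.

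The first question was how many of the deposited probes differed in salt-exposed animals. How these probes were picked is not given, so the shares below are of these probes only. CuCl2 changed 1726 of 4247 probes against blank, or 40.6% (a two-sided moderated test in limma, with p-values adjusted by Benjamini-Hochberg and called under 0.05), and 898 of these probes (21.1%) rose while 828 (19.5%) fell. Rises and falls were thus near equal in number. The medians of the arrays ran only from -0.057 to 0.041, and how the arrays were normalized is not given. This balance therefore cannot be told apart from an effect of centring the arrays. The median called rise was 0.81 on the log2 scale, a 1.75-fold difference, and the median called fall was -0.71, a 1.64-fold difference. The upper tail of the rises was longer: 65 rises were 4-fold to 8-fold and 19 were over 8-fold, whereas 5 falls were 4-fold to 8-fold and 0 exceeded 8-fold. Most calls were small, since 578 rises and 624 falls stayed under 2-fold. At least 2-fold rises numbered 320 (7.53% of all probes) and at least 2-fold falls 204 (4.80%). After quantile normalization these numbers were 191 and 179, and with scaled arrays 236 and 150, so the excess of large rises was smaller after quantile normalization.

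In the probes that rose, CuCl2 pools had a median group mean of 0.28, a little above the reference, and blank pools one of -0.56. In the probes that fell, CuCl2 pools had -0.33 and blank pools 0.40. The 4 CuCl2 values lay entirely above the 4 blank values in 774 of the 898 called rises and entirely below them in 685 of the 828 called falls. Counted without regard to calls, 20.1% of all probes were separated upwards and 18.5% downwards, 38.6% in all.

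**Figure D1:**
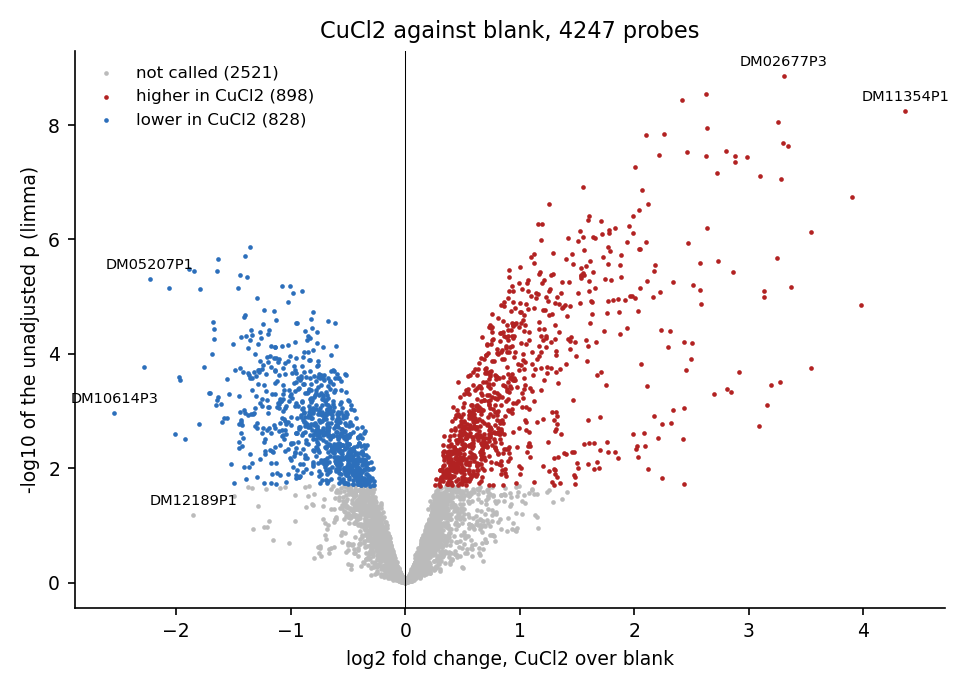
Each point is 1 probe, with its log2 fold change of CuCl2 over blank on the horizontal axis and -log10 of its unadjusted limma p on the vertical axis; red points were called higher (898), blue points called lower (828) and grey points were not called (2521). The rises reach a log2 fold change of 4.37 and the falls -2.54.

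The probes with the largest rises were far below the reference in every blank pool and at or above it in most salt pools. DM11354P1 had dye-centred log2 ratios of 0.87, -0.01, 0.93 and 1.11 in CuCl2 pools 1 to 4, against -3.66, -3.33, -3.83 and -3.75 in blank pools 1 to 4. It rose 20.7-fold (log2 fold change 4.37, SE 0.28 and adjusted p = 5.99e-06 by limma), the widest difference in the table. DM09121P1 had 0.68, -0.24, 0.98 and 1.30 in CuCl2 pools, against -3.06, -2.79, -3.88 and -3.17 in blank pools. The 15.0-fold rise of this probe (log2 fold change 3.91, SE 0.34 and adjusted p = 3.15e-05 by limma) left a gap between the groups wider than the whole range within either. DM08362P4 was the most even of these rises across salt pools, with 0.77, 0.47, 0.55 and 1.12 in CuCl2 pools, against -2.47, -2.40, -2.40 and -3.20 in blank pools (10.2-fold, log2 fold change 3.35, SE 0.24 and adjusted p = 9.54e-06 by limma).

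Other large rises were as wide on average but uneven between salt pools. DM01846P3 had 0.97, -0.69, -0.07 and 1.97 in CuCl2 pools, against -3.46, -3.23, -3.99 and -3.06 in blank pools, a 15.8-fold rise (log2 fold change 3.98, SE 0.54). DM02485P1 had 0.79, -1.34, 0.04 and 2.15 in CuCl2 pools, against -2.58, -2.97, -4.14 and -2.86 in blank pools, an 11.7-fold rise (log2 fold change 3.55, SE 0.65 and adjusted p = 0.00200 by limma). In both probes pool 2 was the lowest and pool 4 the highest of the salt pools, and the groups still did not overlap. DM08027P3 had 0.73, -0.16, 0.61 and 1.25 in CuCl2 pools, against -1.89, -3.36, -3.12 and -3.38 in blank pools (log2 fold change 3.55, SE 0.36). DM05678P4 had 0.58, -0.99, 0.55 and 1.21 in CuCl2 pools, against -2.70, -2.60, -3.65 and -3.19 in blank pools (log2 fold change 3.37, SE 0.43). All 7 of these rises had pool 2 as the lowest and pool 4 as the highest salt pool. With arrays brought to a common spread all 7 were smaller but still called. DM11354P1 then had log2 fold changes of 3.89 (quantile) and 3.82 (scaled), DM01846P3 3.12 and 3.41 and DM09121P1 3.11 and 3.37. DM02485P1 had 2.52 and 2.99, DM08027P3 2.92 and 3.12, DM05678P4 2.35 and 2.78 and DM08362P4 2.62 and 2.95. On the cy3 arrays alone, which hold 2 pools per group, the calls of DM01846P3, DM02485P1, DM08027P3 and DM05678P4 were lost, with log2 fold changes of 3.49, 2.50, 2.91 and 2.44 (limma adjusted p = 0.0641, 0.122, 0.0666 and 0.0839).

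The largest falls were about 4-fold to 6-fold, and their blank pools lay above the reference. DM06597P2 had -1.28, -0.92, -1.42 and -1.65 in CuCl2 pools, against 1.26, 0.09, 0.79 and 1.72 in blank pools. It fell by 2.28 on the log2 scale (SE 0.41 and adjusted p = 0.00193 by limma). DM05207P1 had -1.14, -0.77, -1.50 and -0.73 in CuCl2 pools, against 0.61, 1.66, 1.12 and 1.39 in blank pools, and fell by 2.23 (SE 0.27 and adjusted p = 0.000209 by limma). DM07144P1 was the most even of the falls among salt pools, with -0.86, -0.87, -1.24 and -0.67 in CuCl2 pools, against 0.67, 1.33, 1.12 and 1.51 in blank pools, and it fell by 2.07 (SE 0.26 and adjusted p = 0.000250 by limma). Its call held in each dye orientation taken alone.

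In 4 further falls a single pool set part of the size. DM10614P3 had -1.78, -1.28, -0.51 and -1.39 in CuCl2 pools, against 0.94, 3.23, 0.74 and 0.30 in blank pools. Blank pool 2 thus stood more than 2 on the log2 scale above every other blank. This probe fell by 2.54 (SE 0.58 and adjusted p = 0.00643 by limma), with a log2 fold change of -3.62 on the cy3 arrays alone, which include that blank, and -1.47 on the cy5 arrays alone. In the other three the distant array was CuCl2 pool 4. DM06347P3 had -1.17, -0.40, -0.98 and -3.17 in CuCl2 pools, against 0.22, 0.29, 0.83 and 1.00 in blank pools (log2 fold change -2.01, SE 0.52 and adjusted p = 0.0111 by limma). DM07234P2 had -0.96, -0.82, -0.77 and -2.00 in CuCl2 pools, against 1.30, 0.35, 0.74 and 0.95 in blank pools (log2 fold change -1.97, SE 0.37). DM12302P1 had -0.79, -0.57, -0.96 and -2.23 in CuCl2 pools, against 0.21, 0.99, 0.87 and 1.25 in blank pools (log2 fold change -1.97, SE 0.38). With arrays brought to a common spread DM06347P3 had log2 fold changes of -1.76 (quantile) and -1.71 (scaled), DM07234P2 had -1.80 and -1.73 and DM12302P1 had -2.01 and -1.83, all still called. CuCl2 and blank pools did not overlap in any of the 7 falls. On the cy3 arrays alone the call was kept for DM07144P1 and lost for the other 6, with limma adjusted p between 0.0666 and 0.188, and DM06347P3 and DM12302P1 then had log2 fold changes of -1.04 and -1.28.

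**Figure D2:**
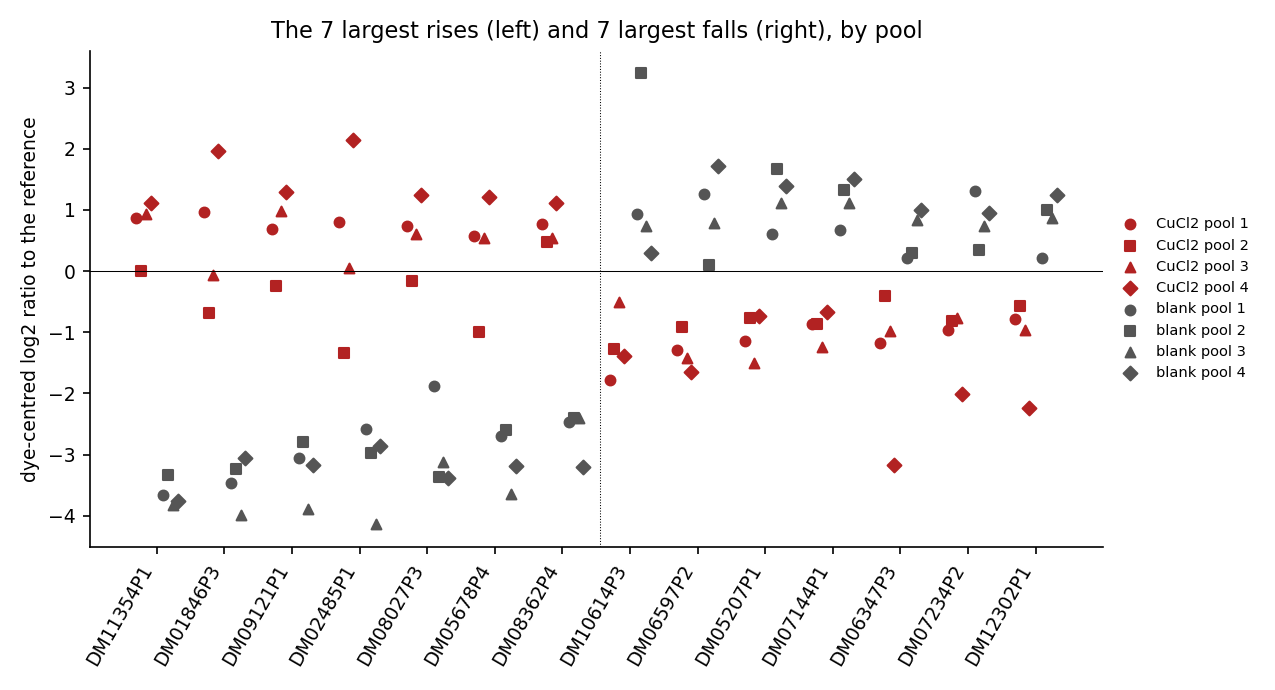
Dye-centred log2 ratios to the reference of the 7 largest rises and 7 largest falls, with CuCl2 pools 1 to 4 in red to the left and blank pools 1 to 4 in grey to the right of each position; the marker shape gives the pool number. The groups do not overlap in any of the 14 probes, and in the rises CuCl2 pool 2 (squares) is lowest and CuCl2 pool 4 (diamonds) highest.

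The smallest p-values among the rises belonged to probes with wide changes and smaller SEs than the largest rises described above. The SEs of these probes lay near the median SE of all called rises (0.17), so their pools were not unusually tight. DM02677P3 had 0.75, 0.37, 0.90 and 1.02 in CuCl2 pools, against -2.58, -2.22, -2.75 and -2.65 in blank pools, and rose 9.90-fold (log2 fold change 3.31, SE 0.18 and adjusted p = 5.15e-06 by limma). DM12118P2 averaged 0.52 ± 0.28 in CuCl2 pools and -2.10 ± 0.16 in blank pools (SD, n = 4 each), and rose 6.18-fold (SE of log2 0.16, same limma adjusted p). DM09208P1 averaged 0.53 ± 0.17 in CuCl2 pools and -1.89 ± 0.20 in blank pools (SD, n = 4 each), a 5.36-fold rise with an SE of 0.15 on the log2 scale. These 3 rises kept their calls in both dye orientations taken alone.

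Among falls the smallest p-values came with changes of under 4-fold. DM02111P2 had -0.60, -0.46, -0.72 and -0.71 in CuCl2 pools, against 0.90, 0.49, 0.58 and 0.95 in blank pools, and fell by 1.36 on the log2 scale (SE 0.15 and adjusted p = 0.000108 by limma). DM05874P3 averaged -0.76 ± 0.31 in CuCl2 pools and 0.64 ± 0.08 in blank pools, and DM01561P3 averaged -0.94 ± 0.36 in CuCl2 pools and 0.70 ± 0.25 in blank pools (SD, n = 4 each). They fell by 1.40 and 1.64 on the log2 scale. The calls of these 3 falls were lost on the cy3 arrays alone, with limma adjusted p of 0.0666, 0.0715 and 0.0536. At the other end, the calls nearest to the threshold were DM07173P1 (log2 fold change 0.31, limma adjusted p = 0.04997) and DM01892P1 (-0.31, limma adjusted p = 0.04977), and the nearest probes outside were DM00192P1 (-0.52, limma adjusted p = 0.05003) and DM12134P3 (-0.84, limma adjusted p = 0.05012). The probes just inside had smaller changes and tighter pools than those just outside.

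The second question was how far the 4 exposed pools agreed. Each CuCl2 pool was set against the mean of the 2 blanks of its own dye, so pools of one dye share their blanks and these figures describe the response rather than test it. In direction the pools agreed almost throughout the called probes. All 4 pools lay on the group's side of blank in 883 of the 898 rises and 813 of the 828 falls, and 3 pools did in the other 15 rises and 15 falls. Over all 4247 probes 59.9% had 4 pools on one side (29.8% above and 30.1% below), and over the 2521 uncalled probes the 4 pools took the group's side in 33.6%. Of the 30 single dissenting values, 27 were from pool 2, with 14 in rises and 13 in falls.

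In size the pools did not agree. Over the called rises the median log2 difference from blank was 0.85 in pool 1, 0.50 in pool 2, 0.83 in pool 3 and 1.06 in pool 4. Over the called falls it was -0.72, -0.43, -0.75 and -0.95 in the same order. Pool 2 thus had the smallest and pool 4 the largest shift in both directions, and pools 1 and 3 were close to each other although they differ in dye. Over the 84 rises of at least 4-fold the medians were 2.66, 1.69, 2.43 and 3.43, and over the 204 falls of at least 2-fold they were -1.28, -0.75, -1.27 and -1.71. Among those 84 rises pool 2 had the smallest shift in 77 and pool 4 the largest in 75. Among all 898 rises these numbers were 655 and 540, and among the 828 falls pool 2 had the smallest shift in 592 and pool 4 the largest in 502. After quantile normalization pool 2 was smallest in 78 of the 84, 687 of the 898 and 606 of the 828, whereas pool 4 was largest in 37, 318 and 274. With scaled arrays pool 4 was largest in 56, 390 and 288.

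**Figure D3:**
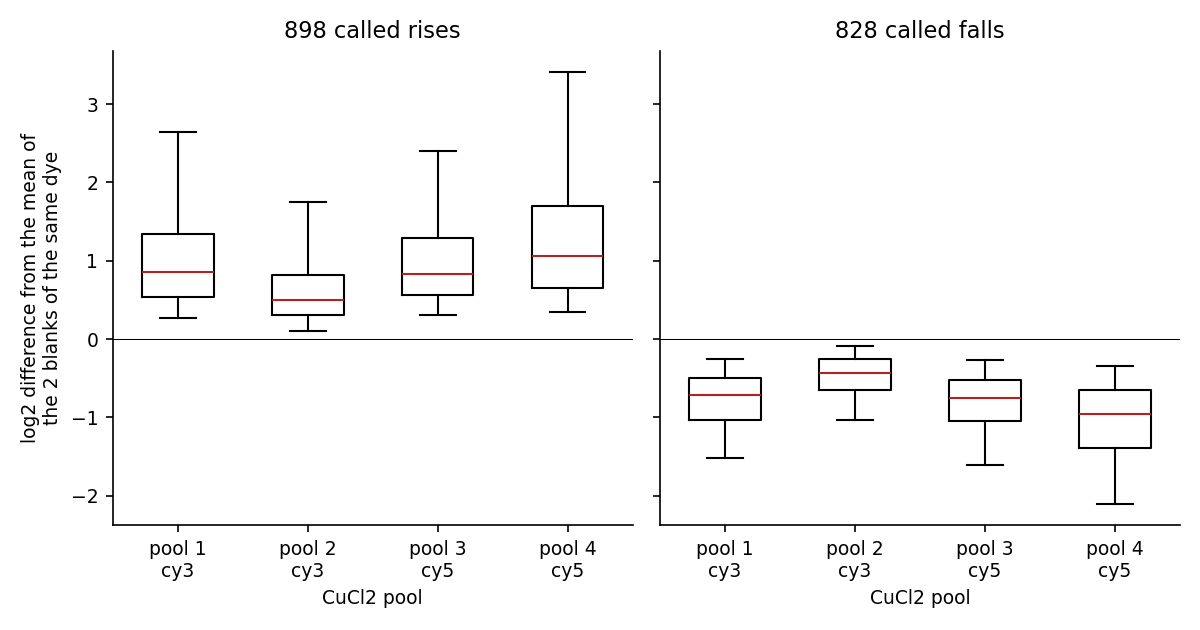
Log2 difference of each CuCl2 pool from the mean of the 2 blanks of its dye, over the 898 called rises (left) and the 828 called falls (right); the line is the median, the box the middle 50% of probes and the whiskers the 5th and 95th percentiles. Pool 2 lies nearest to 0 and pool 4 farthest in both panels, with medians of 0.50 and 1.06 in the rises.

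A regression of each pool's differences on the group's log2 fold change over the 1726 called probes gave slopes of 1.03 for pool 1, 0.63 for pool 2, 1.00 for pool 3 and 1.34 for pool 4. Because the group effect is the mean of the pools, a slope above 1 in one pool requires one below 1 elsewhere. Pool 2 remained lowest when arrays were brought to a common spread, with a slope of 0.54 after quantile normalization and 0.54 with each array scaled to one median absolute deviation. Pool 4 moved closer to pools 1 and 3 under those settings, with slopes of 1.19 and 1.24 against 1.12 and 1.11 for pool 1 and 1.15 and 1.11 for pool 3.

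The same contrast appeared between pools of one dye, where blanks and dye cancel. Pool 1 lay farther from blank than pool 2 in 86.7% of the called probes, and this was 85.7% after quantile normalization and 86.0% with scaled arrays. Pool 4 lay farther from blank than pool 3 in 74.6% of them, but in 51.0% after quantile normalization and 56.3% with scaled arrays. The lead of pool 4 over pool 3 thus shrank once arrays had a common spread, and the lead of pool 1 over pool 2 did not. A lead of pool 1 over pool 2 was also present in CuO animals, where pool 1 was higher in 79.2% of the CuCl2-called rises and lower in 66.3% of the falls. CuO pool 3 was higher than CuO pool 4 in 57.6% of these rises and lower in 65.8% of the falls. Among same-dye blanks pool 1 was higher than pool 2 in 51.1% of these rises and pool 3 higher than pool 4 in 53.9%. In the falls, blank pool 1 was lower than pool 2 in 52.3% and blank pool 3 lower than pool 4 in 57.4%. Whether pools 2 and 4 differed in exposure, in animals or in RNA was not tested.

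**Figure D4:**
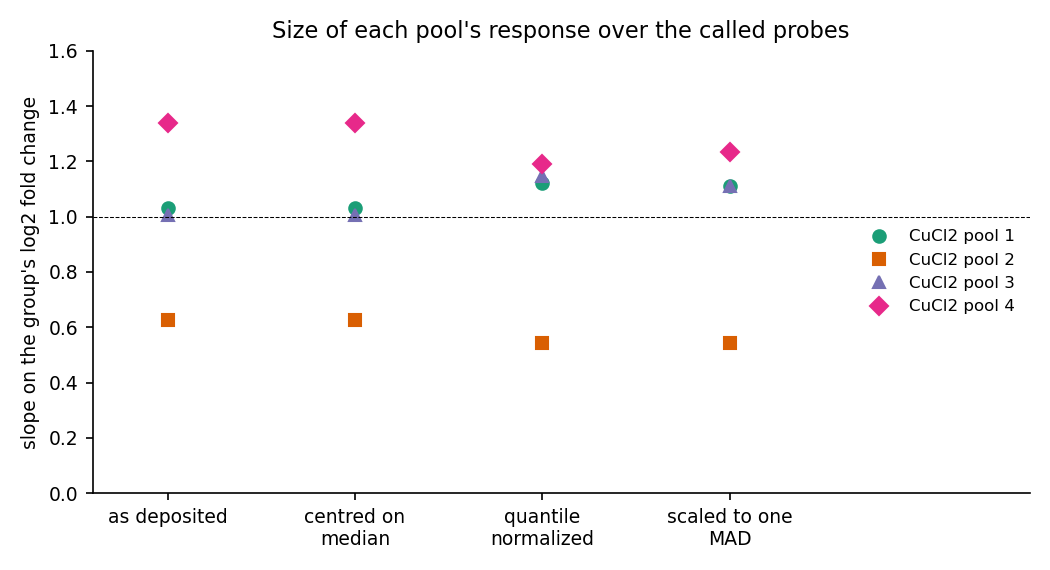
Slope of each CuCl2 pool's differences from blank on the group's log2 fold change over the 1726 called probes (vertical axis), for the table as deposited and 3 other scalings (horizontal axis); the dashed line marks a slope of 1. Pool 2 is lowest in all 4 settings, between 0.54 and 0.63, and pool 4 comes down from 1.34 to 1.19 after quantile normalization.

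The spread between same-dye pools was somewhat larger in CuCl2 than in blank animals. The root mean square difference of the log2 ratios was 0.548 between CuCl2 pools 1 and 2 and 0.595 between CuCl2 pools 3 and 4, against 0.482 and 0.486 for the corresponding blanks. The CuO pairs, at 0.474 and 0.421, lay below the blanks. A difference of over 2-fold between the pools was found for 263 and 392 probes in the CuCl2 pairs, against 181 and 208 in the blank pairs. In the called probes alone the root mean squares were 0.581 and 0.557 in the CuCl2 pairs and 0.415 and 0.398 in the blank pairs. In the uncalled probes they were 0.525 and 0.619 in the CuCl2 pairs and 0.523 and 0.538 in the blank pairs. After quantile normalization the CuCl2 pairs had 0.690 and 0.470, the CuO pairs 0.547 and 0.526 and the blank pairs 0.374 and 0.428 over all probes. With 2 such pairs per group no test of these differences was made.

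Leaving a pool out and asking whether it showed the calls of the other arrays gave the same picture. Without pool 1 there were 1315 calls, and pool 1 had the same sign in 99.6% of them. Without pool 3 there were 1496 calls with the same sign in 98.6%, and without pool 4 there were 1320 with the same sign in 98.8%. Without pool 2 the calls rose in number to 1896, of which 1653 were among the 1726, and pool 2 had the same sign in 91.3%. At least 50% of the fitted change was reached in the omitted pool by 92.2% of the calls for pool 1, 49.7% for pool 2, 90.0% for pool 3 and 94.3% for pool 4. The blanks were common to both sides of each of these counts, and over all probes the omitted pool had the sign of the others in 75.8% to 85.8%. For the 50% measure the share over all probes was not computed, so those percentages only compare the pools.

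For each pool the called probe at which it departed most from the other pools was examined. DM07518P2 had -1.06, 1.97, 1.55 and 0.89 in CuCl2 pools, against -1.11, -1.46, -0.85 and -2.97 in blank pools, so that pool 1 lay among the blanks while the other three did not. Its rise (log2 fold change 2.44, SE 0.88 and adjusted p = 0.0464 by limma) was lost in 16 of 22 alternative settings, with limma adjusted p between 0.0206 and 0.306 over all of them. DM08129P1 had 1.72, -2.06, -0.24 and 2.15 in CuCl2 pools, against -2.64, -2.47, -3.04 and -2.64 in blank pools. Pool 2 was 0.49 above its blanks on the log2 scale and pool 4 was 4.99 above, and the log2 fold change was 3.09 (SE 0.76 and adjusted p = 0.00895 by limma). It was 1.83 after quantile normalization, where the call was lost (limma adjusted p = 0.144), and 2.38 on the cy3 arrays alone, where it was lost as well (limma adjusted p = 0.277). For pool 3 the probe was DM10614P3, where its log2 difference from its blanks was -1.03 and that of the other pools -3.05 on average. That mean includes pools 1 and 2, whose differences of -3.87 and -3.37 were taken from cy3 blanks that include the high blank pool 2, and same-dye pool 4 had -1.91. For pool 4 it was DM02485P1, where its difference was 5.65 and that of the other pools 2.85 on average.

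The third question was whether the salt response held in each dye orientation, which compares pools 1 and 2 with pools 3 and 4. The orientations share no array, and both use the same reference mixture. All 898 called rises were above 0 and all 828 called falls below 0 in both orientations, which the choice of called probes favours. Over all 4247 probes the sign was the same for 79.4%, and the log2 fold changes correlated across probes with r = 0.815 and rho = 0.77, as a description. The changes were smaller on cy3, with a median of 0.69 for the called rises and -0.57 for the called falls, than on cy5, with 0.96 and -0.86. The number of calls differed far more, at 39 on cy3 (0.918% of probes) and 1143 on cy5 (26.9%). The cy3 orientation holds pool 2 and the cy5 orientation pool 4, and the median SE of the effect was 0.238 on cy3 and 0.196 on cy5. The part of these values in the difference was not tested.

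No probe passed the test of a different effect between orientations (0 of 4247, limma interaction term, smallest adjusted p = 0.775), and 259 probes (6.10%) had an unadjusted p under 0.05. The smallest interaction p-values belonged to DM06637P1 and DM05901P1. DM06637P1 had a log2 fold change of -1.24 on cy3 and 0.16 on cy5 and was called on cy3 alone (limma adjusted p = 0.0483) but not over both (limma adjusted p = 0.110). DM05901P1 had 0.44 on cy3, where it was not called, and 2.12 on cy5, and it was called higher over both (log2 fold change 1.28, SE 0.29 and adjusted p = 0.00628 by limma). The interaction of neither passed adjustment (limma adjusted p = 0.775 for both).

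**Figure D5:**
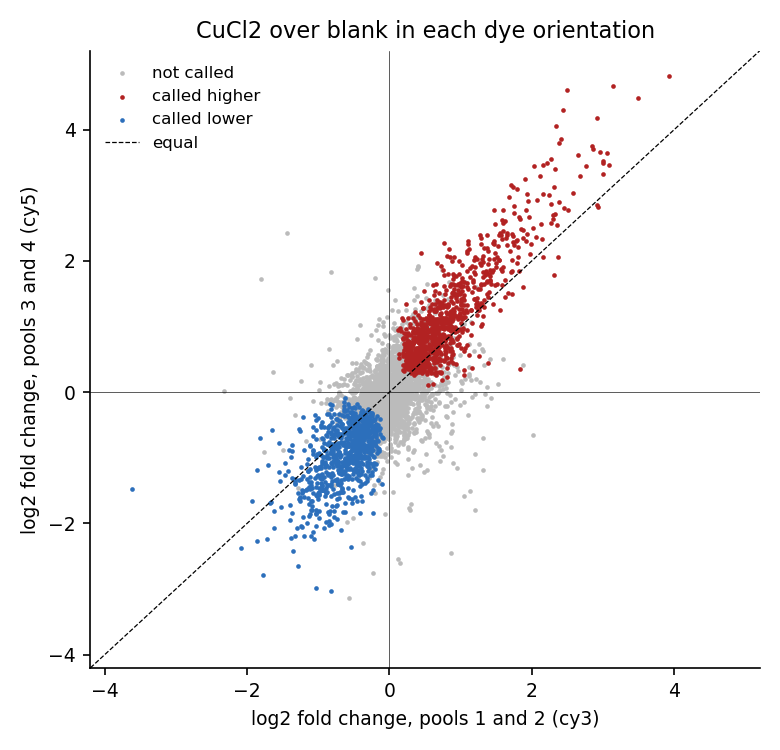
Log2 fold change of CuCl2 over blank in pools 1 and 2 (cy3, horizontal axis) and in pools 3 and 4 (cy5, vertical axis), 1 point per probe, red called higher, blue called lower and grey not called; the dashed line marks equal values. Red and blue points lie mainly on the cy5 side of the line, with medians of 0.69 on cy3 and 0.96 on cy5 for the rises.

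For the 2521 uncalled probes the data gave bounds as well as missing calls. The 95% interval of the CuCl2 effect lay within 2-fold either way for 85.2% of them and within 1.5-fold for 54.6%. At an unadjusted p under 0.05 there were 384 of them. The tightest bounds around no change were those of DM01863P1 (log2 fold change 0.00, 95% interval -0.20 to 0.21), DM01772P1 (0.00, -0.21 to 0.21) and DM01906P1 (-0.02, -0.21 to 0.17). In DM01863P1 the values were -0.01, 0.09, 0.01 and -0.08 in CuCl2 pools and 0.08, -0.10, 0.03 and -0.01 in blank pools.

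Among uncalled probes 31 had fold changes of over 2-fold, and the largest of them rested on 1 or 2 pools. DM12189P1 had -1.02, -0.58, 0.26 and -5.06 in CuCl2 pools, against -0.23, -0.23, 0.54 and 0.92 in blank pools (log2 fold change -1.85, SE 0.91 and adjusted p = 0.126 by limma). Without CuCl2 pool 4 its log2 fold change was -0.55 and passed (limma adjusted p = 0.0292), and with all pools it was -1.31 after quantile normalization (limma adjusted p = 0.0858). DM06476P3 had -0.35, -0.14, -0.40 and -3.02 in CuCl2 pools, against -0.59, 0.57, 0.93 and 1.17 in blank pools (log2 fold change -1.50, SE 0.61 and adjusted p = 0.0689 by limma), and the log2 fold change was -0.73 without CuCl2 pool 4 and -1.27 after quantile normalization. DM10519P1 had 1.35, -0.45, -0.42 and 2.20 in CuCl2 pools, against -0.58, -0.95, -0.91 and -0.53 in blank pools (log2 fold change 1.41, SE 0.55 and adjusted p = 0.0603 by limma). Pools 1 and 4 were high in that probe and pools 2 and 3 lay near the blanks. Its log2 fold change was 1.83 without CuCl2 pool 2, 1.82 without CuCl2 pool 3 and 0.84 without CuCl2 pool 4, and it passed in the first 2 of these fits (limma adjusted p = 0.0178 and 0.0258).

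The named probes were finally set beside the nanoparticle arrays. No probe was called different between CuCl2 and CuO animals (0 of 4247, limma, smallest adjusted p = 0.839), with 198 probes (4.66%) at an unadjusted p under 0.05. The comparisons of CuCl2 and of CuO with blank share the blank pools, so their values are given side by side. DM11354P1 had a log2 fold change against blank of 4.37 with CuCl2 and 4.14 with CuO, and DM05207P1 had -2.23 with CuCl2 and -2.39 with CuO. The widest direct differences among the called probes named here were those of DM07518P2 (1.99 higher in CuCl2 on the log2 scale, 95% interval 0.05 to 3.94), DM06347P3 (-1.01, -2.16 to 0.13) and DM12302P1 (-0.86, -1.70 to -0.03). Their limma adjusted p was 0.839 in each case, and the intervals are for each probe alone. In CuO animals DM07518P2 and DM06347P3 were not called against blank (log2 fold change 0.44 and -0.999, limma adjusted p = 0.722 and 0.160). Over all probes the 95% interval of the difference between the copper forms lay within 2-fold for 88.2%.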

How the data were processed

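The authors deposited a table of log ratios for 12 arrays, read here as log2 because limma, named without a version in the submitters' processing notes, works on that scale. No value here settles the base. The labels' protocols give 100 ng of RNA per labelling, by Agilent's Low Input Quick Amp kit. How background was corrected, arrays were normalized and these 4262 rows were picked is not given in the sources used here. Since the probe numbers reach 15415, counts hold for these rows only. Signal intensities and slides were not used here, and the number of arrays limits the precision. The 15 control rows were set aside, and 0 values were missing.

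Group and dye orientation were fitted on all 12 arrays with limma 3.58.1 in R 4.3.3 (8 residual degrees of freedom), with no sign flips, and p-values were adjusted over 4247 probes at 0.05. The dye term passed for 1388 probes. The labels describe replicate exposures, and 0 pairs of arrays were identical.

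Members, lists and probe rules were chosen with earlier results of these data known. Named were the 7 largest separated rises and falls, the 3 smallest p-values each way, the 3 largest uncalled changes, the 3 narrowest intervals around 0, each pool's most divergent called probe, the 2 smallest interaction p-values, and the 2 probes either side of the threshold. Rules on shared DM numbers and gene lists found no members. Alternatives changed covariates, arrays, scaling, prior, weights and filters. Pool slopes, pool orders and same-dye values under other scalings, and the settings for the later probe rules, were added after the data were seen.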

Additional observations from a re-analysis of the deposited data

Results flagged for a closer look

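Among 71 groups of 4 values, 4 had a pool far from the rest. The cut used passes about 1 in 20 groups by chance when groups are not picked. Most of these groups came from probes picked by their values here, so that rate is no yardstick for them. CuCl2 pool 4 had an SD over probes of 0.711 in its log2 ratios, against 0.386 to 0.434 in the other CuCl2 pools. Blank pools had 0.533 to 0.654. In DM07234P2, CuCl2 pool 4 had a dye-centred log2 ratio of -2.00, against -0.96 to -0.77 in the other CuCl2 pools. In DM06476P3, CuCl2 pool 4 had -3.02, against -0.40 to -0.14. In DM08362P4, blank pool 4 had -3.20, against -2.47 to -2.40 in the other blanks.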

How the results depend on the processing

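The number of called probes ran from 1315 to 1896 when 1 CuCl2 or blank pool was left out, the called rises from 703 to 993 and the called falls from 602 to 903. At least 2-fold rises then ran from 259 to 419 and at least 2-fold falls from 143 to 277. With no dye term 1058 probes were called, 452 of them lower. The cy3 arrays alone gave 39 calls, 36 higher and 3 lower (DM02191P2, DM06637P1 and DM07144P1), all of at least 2-fold, and the cy5 arrays alone gave 1143, of which 524 were lower, both with fewer samples. Quantile normalization left 191 rises and 179 falls of at least 2-fold. It gave 47.8% higher calls against 52.0%, so the majority turned. With arrays brought to a common spread the same-dye CuCl2 pairs had root mean squares of 0.690 (cy3) and 0.470 (cy5) after quantile normalization, and 0.702 and 0.465 with scaling to one median absolute deviation. The interaction with dye called 0 to 2 probes when 1 pool was left out, namely 1 without CuCl2 pool 3 (DM12189P1) and 2 without blank pool 1 (DM07106P1 and DM11287P1). On the cy5 arrays alone DM06637P1, which was not called, had the opposite sign (0.16). The cause was not tested. Deviations of CuCl2 and blank pools of one replicate number correlated with r of 0.15, -0.06, 0.32 and 0.04. Of the CuCl2 pools only pool 3 correlated best with the blank of its number. So few values showed no clear pairing by replicate number and cannot exclude one. A replicate block in place of the dye term gave 1693 calls, 1628 of them among the 1726. Every other alternative kept these counts within 1.5 times. Over 31 named probes and up to 22 settings, 585 values kept direction and call, 67 lost the call, 27 gained one and 1 changed sign.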
